A study of Arabidopsis thaliana with 6 samples.

Results

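Plastids make their RNA with polymerases that depend on the nucleus, and the genes described here are 7 nuclear genes of that machinery in developing Arabidopsis thaliana seeds. They were taken by name and locus, with earlier results of these data known: the sigma factors SIG1 (AT1G64860), SIG2 (AT1G08540), SIG5 (AT5G24120) and SIG6 (AT2G36990), the plastid phage-type RNA polymerase RPOTp (AT2G24120), and the polymerase-associated proteins PTAC2 (AT1G74850) and PTAC12 (AT2G34640). They are 7 of the 33471 loci in the deposited table, and each passed the filter on low values. RNA was sequenced from 3 lines, each with 2 biological replicates: the mutant lines ar21 and i4g1, and wild type (WT). Plants of every line were of the strain Columbia-0, grown in long days (16 h of light and 8 h of dark) at a day temperature of 22 °C and a night temperature of 17 °C. Seeds were dissected 13 days after flowering and pooled, so that a library stands for many seeds. The extraction text of the labels gives a slightly wider window of 12 to 13 days, and no label gives the time of day of harvest. From knowledge of the study and not from the labels, both mutants are read as lines with a lesion in eIFiso4G1 (AT5G57870), a scaffold subunit of a plant translation initiation complex.

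As background, plastid genes are transcribed by a plastid-encoded polymerase (PEP), whose core subunits are the products of the plastid rpo genes, and by nuclear-encoded phage-type polymerases. PEP needs a sigma factor, made in the nucleus and imported, to find a promoter, and a set of PEP-associated proteins without which leaves stay pale. SIG2 and SIG6 act early in chloroplast development, SIG1 serves photosystem genes, and SIG5 is the sigma factor induced by blue light and stress. RPOTp transcribes housekeeping genes of the plastid, including the operon that encodes PEP subunits. Arabidopsis embryos are green for part of their development, so this machinery is at work in seeds as well as in leaves.

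Values are normalised counts, that is read counts divided by a size factor for each library. The libraries held 5078206 and 6071914 reads in ar21, 4972656 and 8435759 reads in i4g1, and 5187867 and 3418773 reads in WT. The 18S rRNA locus took 19.8% to 30.0% of reads in ar21, 3.90% to 11.5% in i4g1 and 40.8% to 60.7% in WT, so the reads left for other genes were fewest in WT. Plastid-encoded loci made up 0.526% to 0.821% of the remaining reads in ar21, 0.122% to 0.384% in i4g1 and 2.33% to 3.09% in WT. Mitochondrial loci, which this machinery does not transcribe, made up 0.947% to 1.79% in ar21, 0.178% to 0.609% in i4g1 and 4.64% to 5.73% in WT. These shares moved with the line, and their part in the results below was not tested. The transcript of eIFiso4G1 was at 116 and 123 normalised counts in ar21, 24.5 and 45.6 in i4g1, and 368 and 454 in WT, lower in both mutants. Of the seed markers, the oil body gene OLEO1 was abundant in every library, between 74521 and 131118 normalised counts. The storage protein genes CRC and SESA1 lay between 0 and 3.66 in every library, although the samples are labelled as seeds. Summed markers of leaf and silique (5 genes) were at 713 to 720.4 in ar21, 905 to 1127 in i4g1 and 966 to 1189.7 in WT, with the trichome gene GL1 at 0 throughout. Most of this sum was TGG1, at 703 and 701 in ar21, 863 and 996 in i4g1, and 1164 and 949 in WT. TGG1 fell by 0.58 in ar21 (limma adjusted p = 0.0119), a call lost in limma without its intensity trend (0.106). The call was also lost without ar21 replicate 1 (-0.58), ar21 replicate 2 (-0.58) or WT replicate 1 (-0.44), and in edgeR and DESeq2. The myrosinase gene TGG2, another of these markers, was at 6.03 and 9.52 in ar21, 33.2 and 124 in i4g1, and 23.2 and 14.0 in WT, highest in i4g1 replicate 2. It rose in i4g1 against WT by 1.78 (limma adjusted p = 0.0304), a call lost without i4g1 replicate 2 (0.85, 0.330) or WT replicate 2 (1.43, 0.137). Summed seed coat mucilage markers (5 genes) were at 6892 to 7275 in ar21, 6236 to 6744 in i4g1 and 3932 to 4209 in WT. Most of this sum was SBT1.7 (6415 and 6060 in ar21, 6184 and 5603 in i4g1, 3441 and 3377 in WT). Of the 5, 3 rose and 2 did not pass in each mutant, where 8.74% of all loci rose in ar21 and 12.5% in i4g1. Mean MUM4 was 677 in ar21, 439 in i4g1 and 573 in WT, and mean TTG2 was 56.3, 63.4 and 64.7. MUM2, an enzyme of mucilage, rose by 2.70 on the log2 scale in ar21 (limma adjusted p = 0.000152) and by 2.32 in i4g1 (0.000273), and the part of these markers in the results was not tested. In whole seeds, fewer cells of a type and less RNA per cell cannot be told apart.

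SIG5 was lower in both mutants than in WT, SIG6 was higher in both, and SIG2 was higher in i4g1. The test across all loci was limma on log2(normalised count + 1), with Benjamini-Hochberg adjustment over 15589 loci, two-sided, at a threshold of 0.05. In ar21 against WT, 2 of the 7 genes passed (1 rose and 1 fell), where 14.8% of all loci passed, 8.74% higher and 6.04% lower. In i4g1 against WT, 3 of the 7 passed (2 rose and 1 fell), where 22.4% of all loci passed, 12.5% higher and 9.84% lower. Both comparisons use the same WT libraries. Between ar21 and i4g1 themselves, 0 of the 7 genes passed, where 0.282% of all loci did (0.115% higher and 0.167% lower in ar21). At an unadjusted p under 0.05 that comparison called SIG5 higher and PTAC12 lower in ar21, and neither edgeR nor DESeq2 on recovered reads of 5 libraries called any of the 7 (0 each). With the summed nuclear reads of the libraries made equal, the calls in i4g1 against WT were 1431 higher and 1849 lower, in place of 1951 and 1534, and those in ar21 against i4g1 were 20 and 16, in place of 18 and 26. The median log2 fold change of the 7 genes was 0.05 in ar21 and 0.35 in i4g1 against WT, and -0.34 in ar21 against i4g1. Over all loci tested the corresponding medians were 0.01, 0.01 and -0.00.

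**Figure D1:**
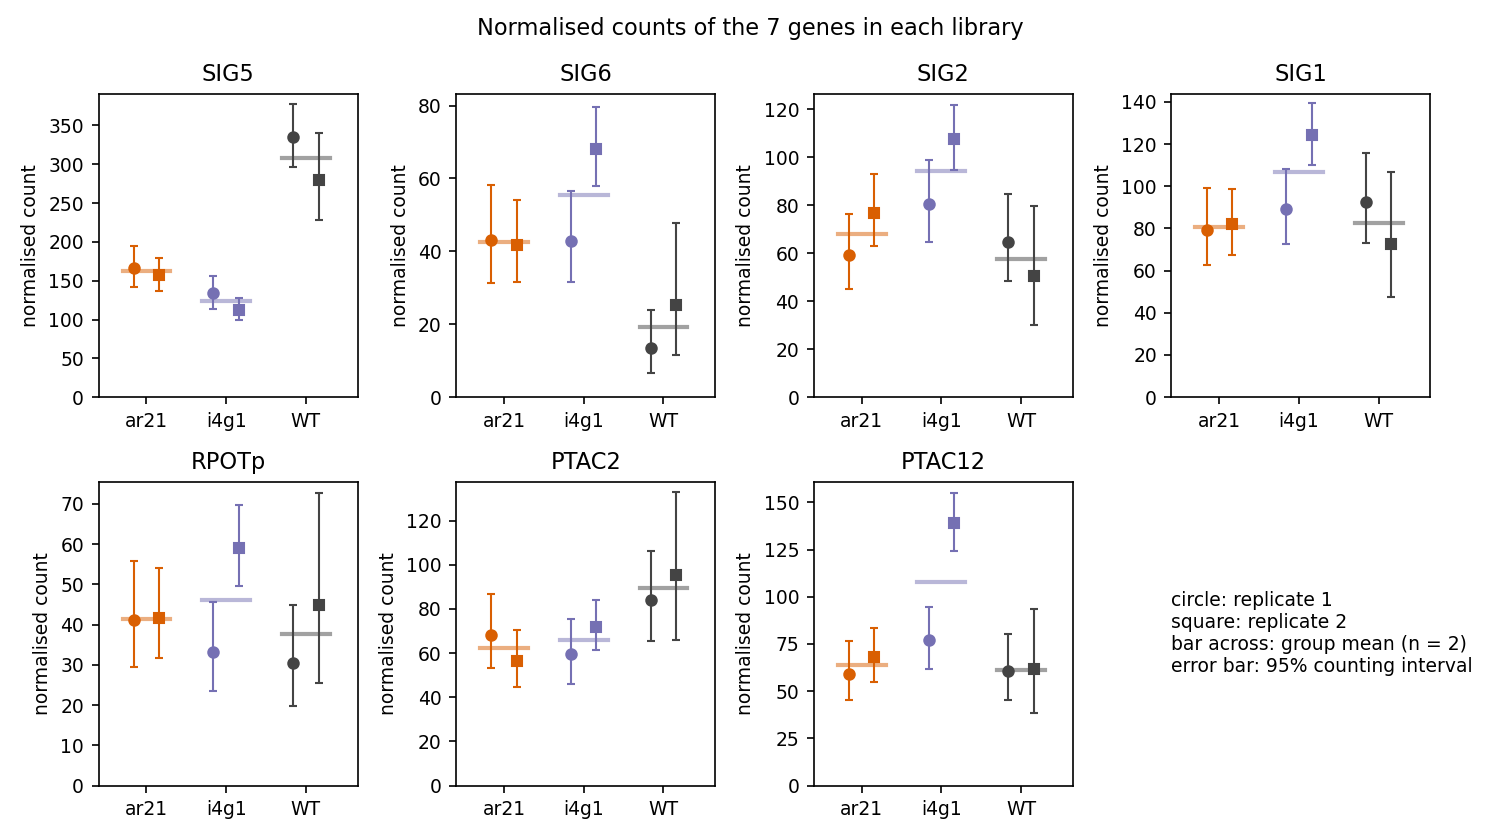
Normalised counts (linear axes that start at 0) of the 7 genes in each library of ar21, i4g1 and WT, with circles for replicate 1, squares for replicate 2, bars across for group means (n = 2) and error bars for exact 95% Poisson counting intervals. SIG5 lies at 113 to 167 in the 4 mutant libraries and at 280.0 to 335 in WT, while SIG6 lies at 41.7 to 68.1 in the mutants and at 13.4 to 25.2 in WT.

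SIG5 is the sigma factor that brings light and stress signals from the nucleus to the plastid. Of the 7 genes it had the smallest adjusted p in both mutants. By mean level per kilobase it was the most abundant of the 7 transcripts in each line, though not in i4g1 replicate 2. Its gene lies on the minus strand of chromosome 5, from 8157151 to 8160343 in TAIR10.1, with 6 exons and a longest transcript of 2165 bases. Normalised counts were 167 and 157 in ar21, 134 and 113 in i4g1, and 335 and 280.0 in WT. All 4 mutant libraries lay below both WT libraries, and both i4g1 libraries lay below both ar21 libraries. Such separation was common among all loci: 58.9% showed it in ar21 against WT (30.4% higher, 28.5% lower), 60.2% in i4g1 against WT (31% higher, 29.2% lower) and 42.4% in ar21 against i4g1 (21.5% higher, 20.8% lower). The deposited values rested on 166 and 215 reads in ar21, 153 and 260 in i4g1, and 275 and 100 in WT. The log2 fold change in ar21 was -0.92 ± 0.15 (SE; 95% interval -1.24 to -0.59; limma adjusted p = 0.00229), a level of 0.530 of WT. In i4g1 it was -1.31 ± 0.15 (95% interval -1.64 to -0.98; limma adjusted p = 0.000170), a level of 0.403 of WT. SIG5 passed the threshold in all 18 alternative settings and left-out-library fits of both comparisons, with log2 fold changes between -1.04 and -0.79 in ar21 and between -1.44 and -1.18 in i4g1. Against i4g1, ar21 was higher by 0.40 (95% interval 0.07 to 0.73), with an unadjusted p of 0.0221 and a limma adjusted p of 0.447, which does not pass.

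SIG6, a general sigma factor of early plastid development, went the other way. Its gene is on the minus strand of chromosome 2, from 15537225 to 15540139, with 9 exons and a longest transcript of 2044 bases. It was at 43.2 and 41.7 normalised counts in ar21, 42.8 and 68.1 in i4g1, and 13.4 and 25.2 in WT. Every mutant library lay above both WT libraries, which held the fewest reads of this gene. The values stood on 43 and 57 reads in ar21, 49 and 157 in i4g1, and 11 and 9 in WT, and the exact 95% counting intervals in WT ran from 6.69 to 24.0 and from 11.5 to 47.8. SIG6 rose in ar21 by 1.16 ± 0.33 on the log2 scale (95% interval 0.44 to 1.88; limma adjusted p = 0.0349), and in i4g1 by 1.50 ± 0.33 (95% interval 0.78 to 2.22; limma adjusted p = 0.00741). These are 2.24-fold and 2.83-fold the WT level. In ar21 the call held in 9 of 17 alternatives, with log2 fold changes from 0.73 to 1.59. It was lost without ar21 replicate 1 (adjusted p = 0.212), without ar21 replicate 2 (0.158) and without WT replicate 1 (0.141, log2 fold change 0.73), and edgeR (0.160) and DESeq2 (0.573) did not make it. In i4g1 it was lost without i4g1 replicate 2 (1.17, adjusted p = 0.0774) and in DESeq2 (0.0578), and passed in the other 15 of 17 alternatives, with log2 fold changes from 1.07 to 1.93 over the 17.

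SIG2, which serves transfer RNA genes and psaJ and is needed for normal greening, was higher in i4g1. The gene is on the plus strand of chromosome 1, from 2703295 to 2706860, with 7 exons and a longest transcript of 2049 bases. Its normalised counts were 59.3 and 76.9 in ar21, 80.4 and 108 in i4g1, and 64.6 and 50.4 in WT. Both i4g1 libraries lay above both WT libraries, whereas ar21 and WT overlapped. SIG2 rose in i4g1 by 0.70 ± 0.23 on the log2 scale (95% interval 0.21 to 1.19; limma adjusted p = 0.0439), 1.62-fold, near the threshold. The call was made in 8 of 18 alternatives and was lost without ar21 replicate 1 (0.0629), ar21 replicate 2 (0.0673), i4g1 replicate 2 (0.268) or WT replicate 2 (0.174), and in edgeR (0.0685) and DESeq2 (0.359). In ar21 the difference from WT was 0.24 (95% interval -0.25 to 0.73; limma adjusted p = 0.522), and between ar21 and i4g1 it was -0.46 (limma adjusted p = 0.598).

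SIG1, a sigma factor of photosystem genes, did not pass in any comparison. It lies on the plus strand of chromosome 1, from 24097736 to 24100970, with 10 exons and a longest transcript of 2200 bases. It stood at 79.4 and 82.0 normalised counts in ar21, 89.1 and 124 in i4g1, and 92.6 and 72.8 in WT. The highest value was in i4g1 replicate 2, and the groups overlapped in both comparisons with WT. The log2 difference from WT was -0.03 in ar21 (95% interval -0.47 to 0.42; limma adjusted p = 0.952) and 0.35 in i4g1 (95% interval -0.09 to 0.80; limma adjusted p = 0.240).

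The sequences before the starts of the 3 sigma factor genes that passed a test are shown for comparison, since these are the genes on which the results turn. They are the 250 bases upstream of the annotated start in TAIR10.1 (RefSeq), read 5′ to 3′ on the strand of the gene, and capitals mark a match to a searched motif.
SIG5 (chr5:8160344-8160593, minus strand): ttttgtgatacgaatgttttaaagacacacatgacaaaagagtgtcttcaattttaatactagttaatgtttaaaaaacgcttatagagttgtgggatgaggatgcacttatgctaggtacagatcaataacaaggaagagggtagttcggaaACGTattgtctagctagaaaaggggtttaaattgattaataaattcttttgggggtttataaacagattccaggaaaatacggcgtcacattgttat
SIG6 (chr2:15540140-15540389, minus strand): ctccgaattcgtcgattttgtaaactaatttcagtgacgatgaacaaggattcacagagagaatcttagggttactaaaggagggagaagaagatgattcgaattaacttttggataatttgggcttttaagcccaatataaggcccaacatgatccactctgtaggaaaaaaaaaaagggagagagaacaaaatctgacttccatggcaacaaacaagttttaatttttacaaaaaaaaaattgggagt
SIG2 (chr1:2703045-2703294, plus strand): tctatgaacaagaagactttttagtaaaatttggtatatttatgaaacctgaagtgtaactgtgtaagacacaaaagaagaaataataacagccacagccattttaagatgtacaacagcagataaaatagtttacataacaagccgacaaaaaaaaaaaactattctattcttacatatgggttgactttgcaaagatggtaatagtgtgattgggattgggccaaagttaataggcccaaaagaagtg
The GC content of these stretches was 33.6% for SIG5, 35.2% for SIG6 and 32.0% for SIG2. A window from 250 bases before to 50 bases after the start was searched on both strands for 5 motifs in all 7 genes and in 27443 protein-coding genes. The ACGT core of many light-responsive elements starts at base -97 in SIG5 (capitals) and again at base 23 after the start, and it was present in 2 of the 7 windows (SIG5 and PTAC2) against 49.9% of all windows. The G-box CACGTG, which contains ACGT, was found in PTAC2 at base -10, and in 7.68% of all windows. The I-box GATAAG was found in SIG6, on the opposite strand at base 12 after the start, and in 14.6% of all windows. The evening element AAAATATCT (2.82% of all windows) and the CCA1-binding sequence AAAAATCT (7.88%) matched 0 of the 7 windows. A match is a run of letters and not a site.

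**Figure D2:**
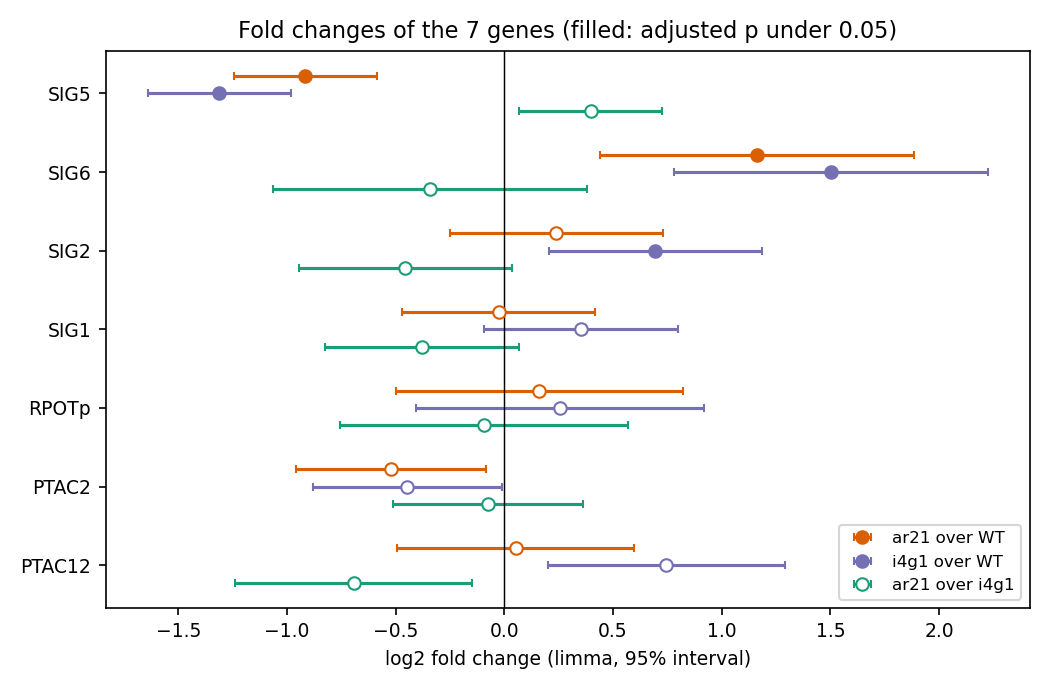
Log2 fold changes of the 7 genes from limma on log2(normalised count + 1) (x axis, points with 95% intervals) for ar21 over WT, i4g1 over WT and ar21 over i4g1, with filled points for an adjusted p under 0.05. SIG5 lies left of 0 and SIG6 right of 0 in both mutants, SIG2 is filled in i4g1, and every ar21 over i4g1 point is open.

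RPOTp, the phage-type polymerase of the plastid, did not pass in any comparison. Its gene is on the minus strand of chromosome 2, from 10248851 to 10254641, with 17 exons and a longest transcript of 3695 bases, and overlaps a pseudogene of near-zero counts by 4 bases. Normalised counts were 41.2 and 41.7 in ar21, 33.2 and 59.0 in i4g1, and 30.5 and 44.8 in WT. The 3 groups overlapped, and the spread within i4g1 and within WT was wider than any difference between group means. The log2 difference from WT was 0.16 (95% interval -0.50 to 0.82; limma adjusted p = 0.769) in ar21 and 0.26 (95% interval -0.41 to 0.92; limma adjusted p = 0.589) in i4g1. With 2 libraries per line, the data do not tell apart the differences inside these intervals.

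PTAC2, a pentatricopeptide repeat protein of the PEP complex, was lower in every mutant library than in either WT library but did not pass the adjusted threshold. The gene lies on the minus strand of chromosome 1, from 28118664 to 28122577, with 4 exons and a longest transcript of 3425 bases. Its normalised counts were 68.3 and 56.4 in ar21, 59.4 and 72.0 in i4g1, and 84.1 and 95.2 in WT. The log2 difference was -0.52 in ar21 (95% interval -0.96 to -0.09; unadjusted p = 0.0230, limma adjusted p = 0.102) and -0.45 in i4g1 (95% interval -0.88 to -0.01; unadjusted p = 0.0456, limma adjusted p = 0.132). Separation of the groups in this direction was near the share of all loci given above, so nothing is read from it.

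PTAC12, also known as HEMERA, is a PEP-associated protein that also acts in phytochrome signalling in the nucleus. It is on the minus strand of chromosome 2, from 14581835 to 14584797, with 10 exons and a longest transcript of 2084 bases. It stood at 59.3 and 68.1 normalised counts in ar21, 76.9 and 139 in i4g1, and 60.9 and 61.6 in WT. Both i4g1 libraries lay above the other 4, but they differed from each other beyond counting error, with exact 95% intervals of 61.7 to 94.8 and 124 to 155. The log2 difference in i4g1 was 0.75 ± 0.25 (95% interval 0.20 to 1.29; limma adjusted p = 0.0511), just short of the threshold. It passed with a pseudocount of 5 (0.71, adjusted p = 0.0487) and over loci with a mean of at least 50 (0.0465). Without i4g1 replicate 1 it was 1.17 (adjusted p = 0.00766), and without i4g1 replicate 2 it was 0.32 (adjusted p = 0.422). In ar21 it was 0.05 (95% interval -0.49 to 0.60; limma adjusted p = 0.922), and ar21 minus i4g1 was -0.69 (95% interval -1.24 to -0.15; unadjusted p = 0.0169, limma adjusted p = 0.424). PTAC12 shares 22 bases with AT2G34630 on the opposite strand, and the library kit does not mark the strand. AT2G34630 was at 121 and 112 normalised counts in ar21, 107 and 117 in i4g1, and 124 and 115 in WT.

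Between the mutants, the remaining differences of ar21 minus i4g1 were -0.34 for SIG6 (limma adjusted p = 0.838), -0.38 for SIG1 (0.651), -0.09 for RPOTp (0.970) and -0.08 for PTAC2 (0.962). Replicate 2 of i4g1, the deepest library, was the highest of the 6 libraries for 5 of the 7 genes, all but SIG5 and PTAC2. The calls of SIG6 and SIG2 in i4g1 are the ones that its removal ended, as given above, while SIG5 passed without it.

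**Figure D3:**
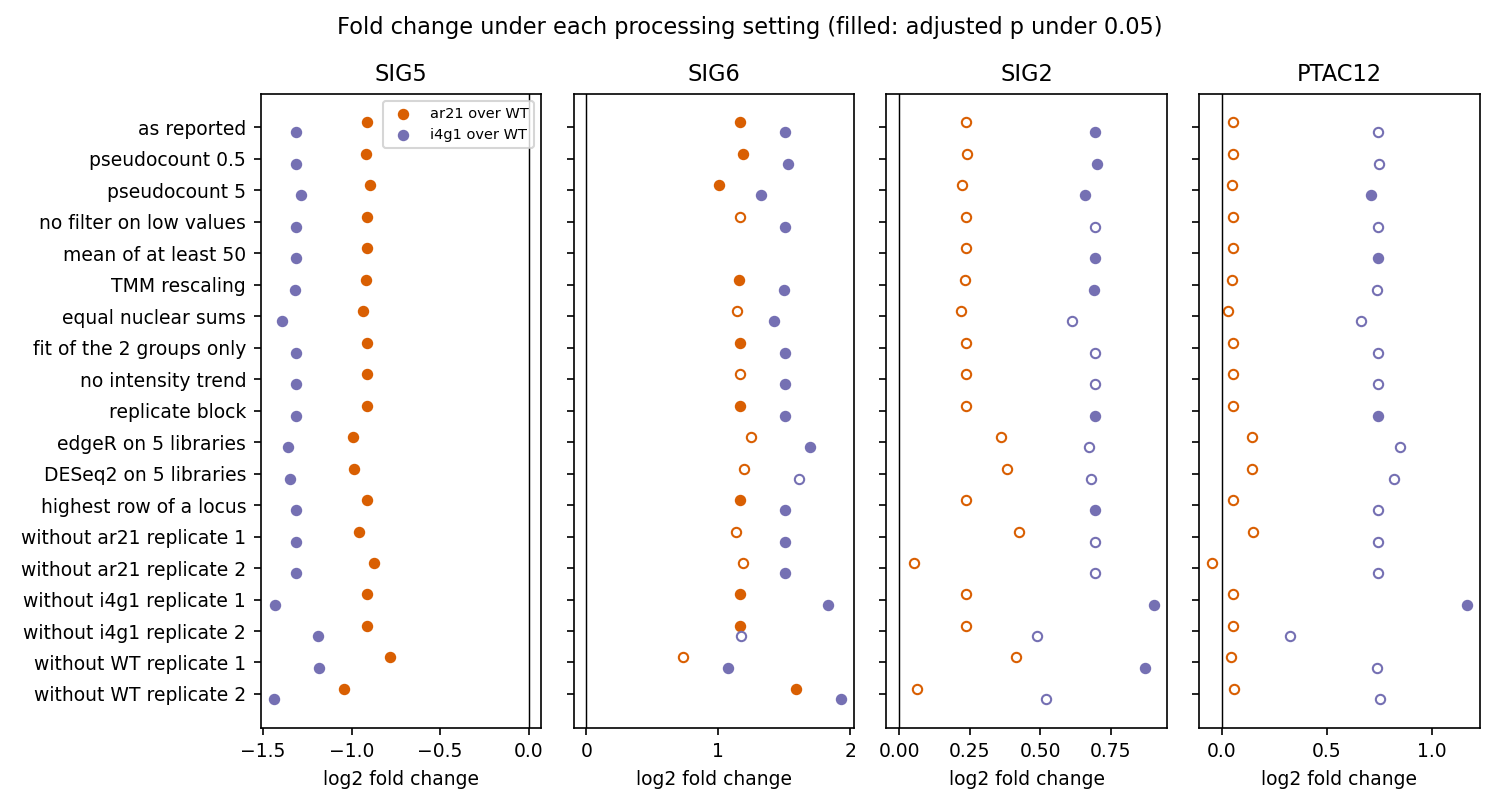
Log2 fold changes of SIG5, SIG6, SIG2 and PTAC12 (x axes) in ar21 over WT and i4g1 over WT under each processing setting (rows), filled where the adjusted p is under 0.05. SIG5 is filled in every row for both mutants, SIG6 is filled in more rows for i4g1 than for ar21, SIG2 in ar21 is open in every row, and SIG6 has no points in the row with a mean of at least 50, which it does not reach.

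Levels were compared between genes only per kilobase of the longest annotated transcript, as mean normalised count per kb ± SD over 2 libraries. In ar21 the order was SIG5 (74.9 ± 3.07), SIG1 (36.7 ± 0.837), SIG2 (33.2 ± 6.07), PTAC12 (30.6 ± 2.98), SIG6 (20.8 ± 0.513), PTAC2 (18.2 ± 2.47) and RPOTp (11.2 ± 0.101). SIG1 and SIG2, SIG2 and PTAC12, and SIG6 and PTAC2 lay within their SDs of each other. In i4g1 the order was SIG5 (56.9 ± 6.82), PTAC12 (51.8 ± 21.0), SIG1 (48.5 ± 11.2), SIG2 (45.9 ± 9.39), SIG6 (27.1 ± 8.75), PTAC2 (19.2 ± 2.60) and RPOTp (12.5 ± 4.94). Neighbours in that order overlapped within their SDs, except that SIG2 lay above SIG6. In WT the order was SIG5 (142 ± 18), SIG1 (37.6 ± 6.38), PTAC12 (29.4 ± 0.223), SIG2 (28.1 ± 4.90), PTAC2 (26.2 ± 2.29), RPOTp (10.2 ± 2.74) and SIG6 (9.44 ± 4.08). There PTAC12 and SIG2, SIG2 and PTAC2, and RPOTp and SIG6 lay within their SDs of each other, as did SIG1 and SIG2 across PTAC12, and SIG5 lay above the rest by more than the SDs. By these means SIG5 held rank 1 in each line, while SIG6 held rank 5 in both mutants and rank 7 in WT. In i4g1 replicate 2 alone, SIG5 (52.1 per kb) lay below PTAC12 (66.6), SIG1 (56.4) and SIG2 (52.5).

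The make-up of the sigma factor transcripts shows the same change without reference to a size factor. Of the summed level per kb of SIG1 to SIG6, SIG5 made up 43.0% and 40.1% in ar21, 35.4% and 23.4% in i4g1, and 60.8% and 59.8% in WT. The share of SIG6 was 11.8% and 11.3% in ar21, 12.0% and 15.0% in i4g1, and 2.57% and 5.70% in WT. The share of SIG1 was 20.2% and 20.5% in ar21, 23.2% and 25.4% in i4g1, and 16.5% and 15.3% in WT. All 4 mutant libraries lay below WT for SIG5 and above WT for SIG6 and SIG1, and a lower share of SIG5 raises the others by construction. SIG2 made up 16.2% and 20.7% in ar21, 22.5% and 23.6% in i4g1, and 12.4% and 11.4% in WT.

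**Figure D4:**
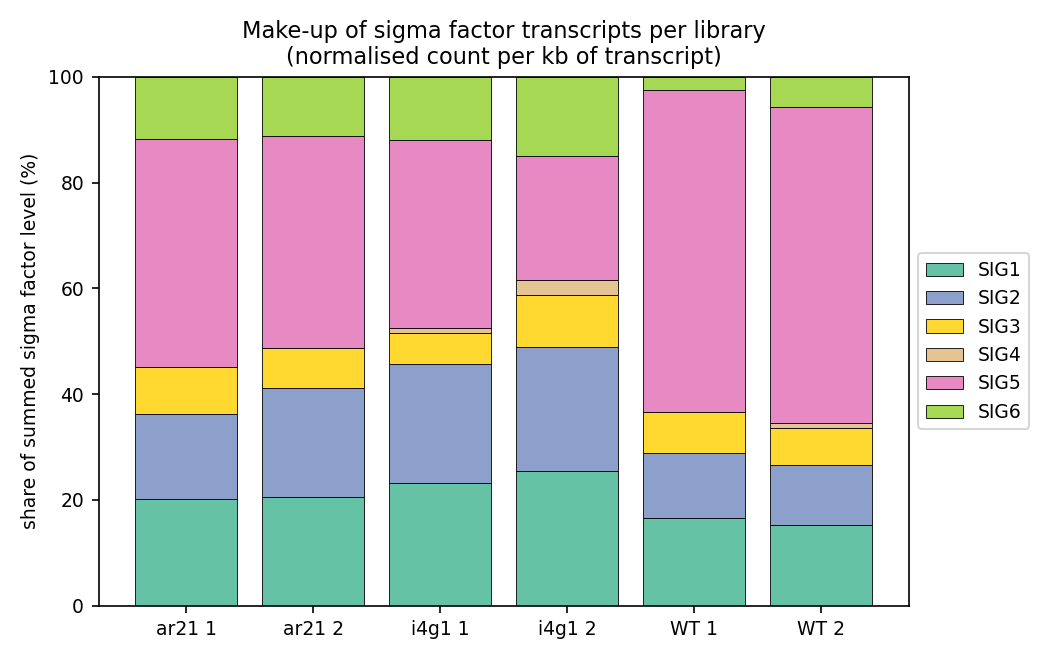
Share of each of the 6 sigma factor genes in their summed normalised count per kb of transcript (y axis, %), in a stacked bar for each library of ar21, i4g1 and WT. SIG5 fills 40.1% to 43.0% of the ar21 bars, 23.4% to 35.4% of the i4g1 bars and 59.8% to 60.8% of the WT bars.

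Ratios of reads within a library cancel its scaling altogether. There were 3.86 and 3.77 reads of SIG5 per read of SIG6 in ar21, 3.12 and 1.66 in i4g1, and 25.0 and 11.1 in WT. The WT ratios carried wide exact 95% counting intervals, 13.8 to 50.7 and 5.62 to 25.0, since SIG6 had few reads there, yet even their lower ends lay above the 4 mutant ratios. SIG5 to SIG2 was 2.81 and 2.05 in ar21, 1.66 and 1.05 in i4g1, and 5.19 and 5.56 in WT. SIG5 to PTAC12 was 2.81 and 2.31 in ar21, 1.74 and 0.813 in i4g1, and 5.50 and 4.55 in WT. SIG5 to RPOTp was 4.05 and 3.77 in ar21, 4.03 and 1.91 in i4g1, and 11.0 and 6.25 in WT, and SIG5 to SIG1 was 2.10 and 1.92 in ar21, 1.50 and 0.909 in i4g1, and 3.62 and 3.85 in WT. In each of these ratios both WT libraries lay above all 4 mutant libraries. All of them have SIG5 as numerator, so they are not separate observations, and such separation was common among single loci, as given above. SIG5 to PTAC2, the pair that were both lower in the mutants, was 2.44 and 2.79 in ar21, 2.25 and 1.57 in i4g1, and 3.99 and 2.94 in WT. Both WT libraries again lay above all 4 mutant libraries, with the 3 lines closer together.

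Of the other sigma factors, SIG3 did not pass in either mutant and SIG4 was too low to test. SIG3, which serves psbN, was at 35.2 and 30.0 normalised counts in ar21, 22.7 and 48.2 in i4g1, and 43.9 and 33.6 in WT. Its log2 difference was -0.23 in ar21 (limma adjusted p = 0.695) and -0.21 in i4g1 (limma adjusted p = 0.707). SIG4, which serves ndhF, had 0 and 0 reads in ar21, 3 and 21 in i4g1, and 0 and 1 in WT.

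RPOTmp, the phage-type polymerase shared by mitochondria and plastids, fell in both mutants, while RPOTp did not pass. It was at 80.4 and 95.2 normalised counts in ar21, 66.4 and 80.7 in i4g1, and 163 and 182 in WT, with no overlap between the mutants and WT. The log2 fold change was -0.97 ± 0.18 in ar21 (limma adjusted p = 0.00370) and -1.22 ± 0.18 in i4g1 (limma adjusted p = 0.000603). The call in ar21 was lost without ar21 replicate 1 (-0.85, adjusted p = 0.0725), and edgeR (0.0516) and DESeq2 (0.282) did not make it. RPOTm, the mitochondrial enzyme, was at 52.2 and 30.0 in ar21, 46.3 and 52.5 in i4g1, and 25.6 and 36.4 in WT, and did not pass (0.37 with limma adjusted p = 0.459, and 0.67 with 0.132).

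Few of the nuclear genes of other PEP-associated proteins passed, at shares near those of all loci. Of 10 tested, 1 rose and 0 fell in ar21, and 2 rose and 1 fell in i4g1, with median log2 fold changes of 0.27 and 0.40. Among all loci tested, 8.74% rose and 6.04% fell in ar21, and 12.5% rose and 9.84% fell in i4g1. FSD3, an iron superoxide dismutase of the plastid nucleoid, rose by 0.87 in ar21 (limma adjusted p = 0.0185) and by 0.72 in i4g1 (0.0310). PTAC10 rose by 0.65 in i4g1 (limma adjusted p = 0.0338), and MURE fell by 0.86 there (limma adjusted p = 0.0108). Removal of single libraries ended these calls: for FSD3 in ar21, without ar21 replicate 1 (0.207), ar21 replicate 2 (0.0757) or WT replicate 1 (0.0691), and for MURE, without i4g1 replicate 1 (0.0949) or WT replicate 1 (0.0583). In edgeR FSD3 and PTAC10 did not pass (FSD3 0.147 in ar21 and 0.0532 in i4g1, PTAC10 0.0561), and in DESeq2 MURE did not either (0.120). FSD3 in i4g1 was lost without any 1 library except WT replicate 2, and PTAC10 without any 1 of the 6, with adjusted p up to 0.148 and 0.189.

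Among 19 other nucleoid proteins and regulators of PEP, 17 were tested, and PTAC18 and SIB1 were listed at 0 in every library. In ar21 1 of them rose and 0 fell, and in i4g1 4 rose and 0 fell, with medians of 0.29 and 0.47. Of all loci, 8.74% rose in ar21 and 12.5% in i4g1. PTAC16, a nucleoid protein bound to thylakoid membranes, was at 299 and 273 normalised counts in ar21, 312 and 353 in i4g1, and 143 and 137 in WT. It rose by 1.03 in ar21 (limma adjusted p = 0.000530) and by 1.24 in i4g1 (0.000113), in all 18 alternatives of each. The other 3 that rose in i4g1 were FLN2 (1.03, limma adjusted p = 0.0155), PTAC17 (1.01, 0.00617) and PTAC13 (0.63, 0.0499). Without i4g1 replicate 2 the adjusted p was 0.0665 for FLN2, 0.0615 for PTAC17 and 0.143 for PTAC13, and DESeq2 called none of these 3 (0.319, 0.130 and 0.499). FLN2 was also lost without i4g1 replicate 1 (0.0888), and PTAC13 without any 1 library except WT replicate 1, with adjusted p up to 0.183. PTAC17 and PTAC13 were named after their values were seen.

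**Figure D5:**
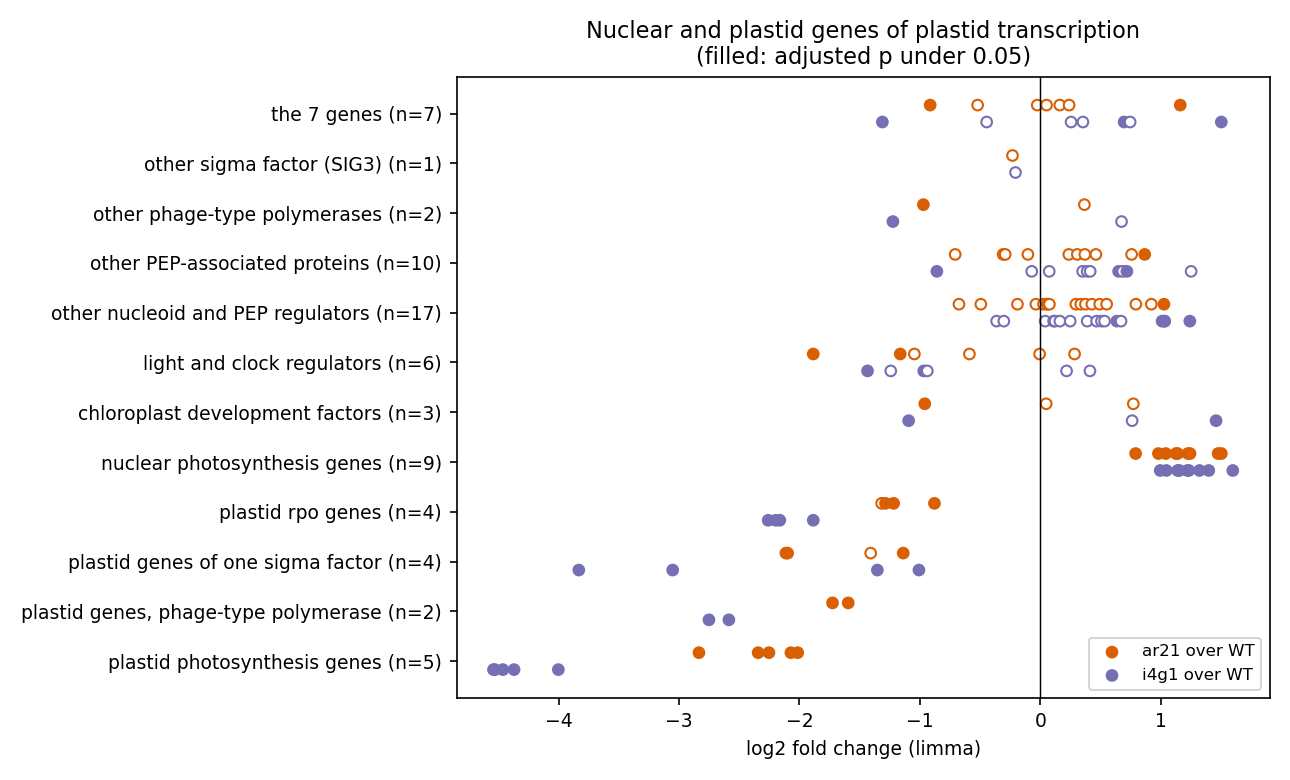
Log2 fold changes from limma (x axis) of the 7 genes and of other nuclear and plastid genes of plastid transcription, by list (rows), for ar21 over WT and i4g1 over WT, filled where the adjusted p is under 0.05. The nuclear photosynthesis genes lie right of 0 and the plastid-encoded genes left of 0 in both mutants, and the 7 genes spread on both sides.

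Plastid-encoded transcripts, the products of this machinery, were lower in both mutants. Of all loci, 6.04% fell in ar21 and 9.84% in i4g1. Of the 4 genes of the PEP core, 3 fell in ar21 and 4 in i4g1, with log2 fold changes of -0.88 (rpoB, limma adjusted p = 0.0211), -1.22 (rpoC1, 0.0428) and -1.29 (rpoC2, 0.0183) in ar21, where rpoA was at -1.32 (0.0567). In i4g1 the values were -2.20 for rpoA (limma adjusted p = 0.00345), -1.89 for rpoB (0.000198), -2.26 for rpoC1 (0.00120) and -2.16 for rpoC2 (0.000660). Each of the 3 calls in ar21 was lost without ar21 replicate 2, with adjusted p of 0.215, 0.270 and 0.147 for rpoB, rpoC1 and rpoC2. The call of rpoB was also lost without WT replicate 1 (0.0958), that of rpoC2 without ar21 replicate 1 (0.0686) or WT replicate 2 (0.0875), and that of rpoC1 without ar21 replicate 1 (0.0931), WT replicate 1 (0.104) or WT replicate 2 (0.139). In ar21 2 of the 4 fell in edgeR and 1 in DESeq2, and in i4g1 4 and 3. Replicate 2 of i4g1 carried much of the size there, and without it rpoA was at -1.24, rpoC1 at -1.50 and rpoC2 at -1.51, each still past the threshold. As background, the kit selects RNA with poly(A) tails, which most plastid messages lack. The plastid share of reads given above moved with the 18S rRNA and mitochondrial shares. The part of these shares in the values was not tested.

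Of 4 plastid genes known to depend on particular sigma factors, 3 fell in ar21 and 4 in i4g1. The shares of all loci that fell were 6.04% and 9.84%. psbD, whose light-responsive promoter is read with SIG5, was at 4509 and 2812 normalised counts in ar21, 2151 and 543 in i4g1, and 15214 and 15600.2 in WT. It fell by 2.11 on the log2 scale in ar21 (limma adjusted p = 0.00844; lost without ar21 replicate 2, 0.0921) and by 3.83 in i4g1 (limma adjusted p = 0.000182), or 2.84 without i4g1 replicate 2. psaJ, read with SIG2, was at 90.4 and 59.3 in ar21, 99.6 and 64.7 in i4g1, and 112 and 235 in WT. It fell by 1.14 in ar21 (limma adjusted p = 0.0331) and by 1.01 in i4g1 (0.0408), while SIG2 was higher in i4g1. Without WT replicate 2 the values of psaJ were -0.61 (0.221) and -0.48 (0.301), without ar21 replicate 1 -1.44 (0.0713) and -1.01 (0.0502), and the calls were also lost without ar21 replicate 2 in ar21 (0.244) and i4g1 replicate 2 in i4g1 (0.239). psbN, read with SIG3, fell by 2.10 in ar21 (limma adjusted p = 0.0220; lost without ar21 replicate 2, 0.200, or WT replicate 2, 0.115) and by 3.05 in i4g1 (0.00203), or 2.03 without i4g1 replicate 2. In edgeR 2 of the 4 fell in ar21 and 3 in i4g1, and in DESeq2 1 and 2. ndhF, read with SIG4, was at -1.41 in ar21 (limma adjusted p = 0.0559) and fell by 1.35 in i4g1 (0.0493), a call made in 5 of 18 alternatives. It was lost without ar21 replicate 1 (0.0697), ar21 replicate 2 (0.0730), i4g1 replicate 2 (-0.58, 0.367) or WT replicate 2 (-0.83, 0.292), and in ar21 ndhF passed without i4g1 replicate 1 (0.0179), i4g1 replicate 2 (0.0147) or WT replicate 1 (0.0324).

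The 5 plastid photosynthesis genes tested all fell, with medians of -2.25 in ar21 and -4.46 in i4g1, where 6.04% and 9.84% of all loci fell. Log2 fold changes in the pair of mutants, ar21 given before i4g1, were -2.83 (limma adjusted p = 0.00551) and -4.00 (0.000463) for psbA of photosystem II. They were -2.34 (0.00584) and -4.53 (7.98e-05) for psaA of photosystem I, and -2.01 (0.0111) and -4.54 (7.18e-05) for rbcL of Rubisco. psbA was at 2644 and 1721 normalised counts in ar21, 1619 and 556 in i4g1, and 7477 and 30982 in WT, so the WT libraries lay far apart. Without WT replicate 2 its values were -1.81 in ar21 and -2.98 in i4g1, and without WT replicate 1 they were -3.86 and -5.03, all past the threshold. Without i4g1 replicate 2, the lowest library, the i4g1 values were -3.23 for psbA, -3.50 for psaA and -3.54 for rbcL, and without i4g1 replicate 1 they were -4.77, -5.55 and -5.54, again all past it. In ar21 0 of the 5 passed in DESeq2, while edgeR called 5 and limma had 5 at an unadjusted p under 0.05, and 0 passed without the intensity trend (adjusted p 0.0920 to 0.144). Without ar21 replicate 2 the calls in ar21 were lost (adjusted p of psbA 0.0604, of psaA 0.0697, of rbcL 0.104, of psaB 0.108 and of psbB 0.177). That of rbcL was also lost without WT replicate 2 (0.0693), and that of psbB without WT replicate 1 (0.0896) or WT replicate 2 (0.0623). accD and clpP are genes known for phage-type polymerase promoters, and RPOTp did not pass. They fell by 1.60 and 1.73 in ar21 and by 2.75 and 2.59 in i4g1, and the part of RPOTp was not tested. In ar21 their calls were lost without ar21 replicate 2 (0.0897 and 0.0774) or WT replicate 2 (0.0652 and 0.0503), and that of accD without ar21 replicate 1 (0.0809). DESeq2 called neither in ar21 (0.540 and 0.267), and edgeR did not call accD (0.0585). In i4g1 the values without i4g1 replicate 2 were -1.91 and -1.87, still past the threshold.

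Nuclear genes of the photosystems and Rubisco went up while their plastid partners were lower. The plastid and mitochondrial shares of reads given above were both lower in the mutants, and their part in this contrast was not tested. All 9 tested rose in both mutants, with medians of 1.14 in ar21 and 1.22 in i4g1. Of all loci, 8.74% rose in ar21 and 12.5% in i4g1. LHCB4.1, which belongs to the light-harvesting antenna of photosystem II, rose by 1.50 in ar21 (limma adjusted p = 2.05e-05) and by 1.60 in i4g1 (1.02e-05). LHCB5, another of them, rose by 1.48 (8.00e-05) and 1.23 (0.000182), and PSBO1, of the oxygen-evolving complex, by 1.23 (8.61e-05) and 1.40 (3.24e-05). RBCS1A, of the small subunit of Rubisco, was the exception under left-out libraries, since its call in ar21 (0.79, limma adjusted p = 0.00740) was lost without ar21 replicate 1 (0.127), ar21 replicate 2 (0.0631) or WT replicate 1 (0.0888).

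Among 6 regulators known upstream of SIG5 in light and clock signalling, 0 rose and 2 fell in each mutant, where 6.04% of all loci fell in ar21 and 9.84% in i4g1. LHY, a clock transcription factor of the morning, was at 23.1 and 28.5 normalised counts in ar21, 21.8 and 20.4 in i4g1, and 56.1 and 61.6 in WT. It fell by 1.16 in ar21 (limma adjusted p = 0.0131; lost without ar21 replicate 1, 0.151, or ar21 replicate 2, 0.0591, and in edgeR, 0.126, and DESeq2, 0.578) and by 1.43 in i4g1 (0.00285). CCA1, its close relative, was at -1.05 (limma adjusted p = 0.114) and -1.24 (0.0509). HYH fell by 1.89 in ar21 (limma adjusted p = 0.0182; lost without ar21 replicate 1, 0.0607, ar21 replicate 2, 0.144, or WT replicate 2, 0.0694) and HY5 by 0.97 in i4g1 (0.0191; lost without i4g1 replicate 2, 0.131, or WT replicate 1, 0.0554, and in DESeq2, 0.203). Both are light-signalling factors of the bZIP class. HYH was low, at 8.04 and 4.39 normalised counts in ar21, 9.61 and 16.1 in i4g1, and 21.9 and 28.0 in WT, and DESeq2 did not call it in ar21. The blue light receptor genes CRY1 and CRY2 did not pass (-0.01 and 0.28 in ar21, 0.22 and 0.41 in i4g1). The hour of harvest was not given for any library, and its part in these genes and in SIG5 was not tested.

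Of 3 chloroplast development factors tested, GLK2 fell by 0.96 in ar21 (limma adjusted p = 0.0428) and by 1.09 in i4g1 (0.0179), and GLK1 rose by 1.46 in i4g1 (0.0312). Without WT replicate 2 GLK2 was at -0.54 (0.235) and -0.67 (0.117), and GLK1 at 1.21 (0.105). GLK2 was also lost without either ar21 library in ar21 (0.190 and 0.203) and without either i4g1 library in i4g1 (0.0514 and 0.0869), and GLK1 without ar21 replicate 1 (0.0549), ar21 replicate 2 (0.0502) or i4g1 replicate 2 (0.272). In DESeq2 neither passed (GLK2 0.521 in ar21 and 0.117 in i4g1, GLK1 0.233), and in edgeR GLK2 did not pass in ar21 (0.176).

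Across the 6 libraries, SIG5 and SIG6 had a Pearson correlation of -0.96 on the log2 scale, and SIG1 and PTAC12 one of 0.90. These are descriptions over 6 points that share their lines and libraries. The loci most like SIG5 were AT5G62490 (ATHVA22B) and AT5G57250, with r of 1.000 and 0.999, and 356 of the loci tested had r above 0.95. For SIG6 they were AT1G69740 (HEMB1) and AT1G02560 (CLPP5), both at 0.995, with 163 loci above 0.95. For SIG2 they were AT1G09130 (CLPR3, 0.995) and AT1G75730 (0.993), and for SIG1 AT3G19960 (ATM1) and AT3G46970 (ATPHS2), both at 0.993. For RPOTp they were AT2G18770 (0.990) and AT3G55410 (0.983), for PTAC2 AT1G57770 (0.994) and AT5G23810 (AAP7, 0.993), and for PTAC12 AT1G15980 (NDF1, 0.995) and AT1G09780 (PGM1, 0.993). The numbers of loci above 0.95 were 26 for SIG1, 48 for SIG2, 15 for RPOTp, 67 for PTAC2 and 37 for PTAC12.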

How the data were processed

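The deposited table gives, per library and locus, a read count that the authors divided by a size factor (unit: signal, the normalised count of the text). The submitters' processing notes name DESeq2 1.12.4, HTSeq 0.6.0, StringTie 1.0.3 and STAR 2.4.0j, and the build TAIR10. Roles, parameters and strand setting are not given in the sources used here. Value columns were matched to samples by name, and 0 were left over. Rows of a locus were summed (34001 rows to 33471 loci, 494 of them from several rows; the 7 genes have 1 row each). Every value was a whole multiple of a step of its library (100.0% within 0.001), and whole reads were taken as recovered for 5 of 6 libraries. For ar21 replicate 1 the step was 1.005, and its closeness to 1 is why this library was not counted as recovered. The reads printed for it are its values divided by that step, and it stayed out of count tests. The edgeR and DESeq2 results in ar21 therefore rest on ar21 replicate 2 alone. They are not separate from the fit without ar21 replicate 1. Read totals and 18S shares of ar21 replicate 1 also rest on that step. Counting intervals (exact Poisson, 95%) cover counting error only.

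The main test was limma 3.58.1 (R 4.3.3) on log2 of the deposited value plus 1, fitted to all 6 libraries with 1 mean per line and an intensity trend, for loci with a mean of at least 10 (15589 loci), so fold changes understate those of low genes. The table turned out to hold normalised values, and edgeR 4.0.16 and DESeq2 1.42.0 on recovered reads were therefore alternatives. Replicates are called biological by the labels, but nothing says which plants they came from. The replicate numbers were not taken as a pairing of libraries. The 7 genes, the lists and the rule for named genes (every member; in other lists the 2 largest changes past the threshold in each direction, and fixed polymerase, sigma factor and target genes) were chosen with earlier results of these data known. CCA1, CRY1, CRY2 and the seed markers outside that rule were named after their values were seen. The table carries no coordinates, and positions come from RefSeq's TAIR10.1 annotation, matched by locus for 32527 loci. Fold changes were tested on simulated data first.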

Additional observations from a re-analysis of the deposited data

Results flagged for a closer look

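Of the listed genes, 3 outside the 7 differed between the 2 mutants in the limma test of ar21 against i4g1. Over all 15589 loci tested, 44 passed (0.282%). The transcript of eIFiso4G1 was at 116 and 123 normalised counts in ar21 and at 24.5 and 45.6 in i4g1, a log2 difference of 1.80 (adjusted p = 0.0109). The plastid gene rbcL was at 2231 and 1488 in ar21 and at 633 and 157 in i4g1, a log2 difference of 2.53 (adjusted p = 0.0426). The myrosinase gene TGG2, a marker of leaf and silique, was at 6.03 and 9.52 in ar21 and at 33.2 and 124 in i4g1, a log2 difference of -2.93 (adjusted p = 0.0442). Removal of single libraries ended these calls. For eIFiso4G1 these were ar21 replicate 1 (0.118) and ar21 replicate 2 (0.0974). For rbcL they were every library except i4g1 replicate 1 (adjusted p up to 0.455), and without i4g1 replicate 2 the difference was 1.52 (0.0639). For TGG2 they were ar21 replicate 1 (0.455), ar21 replicate 2 (0.153), i4g1 replicate 2 (-1.99, 0.314) and WT replicate 1 (0.0534). Of the 7 genes 0 passed this test.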

How the results depend on the processing

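SIG5 kept its direction and call in both mutants under each of 18 alternatives. Over the 7 genes, 340 of the alternative values kept direction and side of the threshold, 20 fell below the threshold, 4 passed it and 8 changed sign. Most of the 340 belong to results that had not passed in the main test. All 20 losses were in SIG6 and SIG2, as given above for each. The 8 changes of sign were all in values that did not pass and with a library left out. The ranges over left-out libraries were -0.20 to 0.15 (SIG1), -0.047 to 0.15 (PTAC12) and -0.11 to 0.43 (RPOTp) in ar21, -0.15 to 0.66 (RPOTp) in i4g1, and -0.21 to 0.062 (PTAC2) and -0.50 to 0.31 (RPOTp) in ar21 minus i4g1. Outside the 7, sign also changed in values that did not pass for CRY1 in ar21 (-0.15 to 0.14; 0.12 in edgeR and in DESeq2), RPOTm in ar21 (-0.024 to 0.76; -0.014 in DESeq2) and SIG3 in i4g1 (-0.73 to 0.32). The counts moved more, and the cause was not tested. In ar21 against WT, 2 of the 7 genes and 2304 loci passed. Of the 7, 1 passed with no filter on low values, 1 with a mean of at least 50 (which SIG6 and RPOTp do not reach), 1 with equal nuclear sums, 1 without the intensity trend, 1 in edgeR and 1 in DESeq2. The loci then numbered 676 without the trend, 685 in edgeR and 365 in DESeq2. With each library left out in turn the ranges were 1 to 2 genes and 522 to 2374 loci. In i4g1 against WT, 3 genes and 3485 loci passed, against 1784 loci without the trend, 1285 loci and 1 gene in DESeq2, and 2044 to 3185 loci and 1 to 4 genes with a library left out. In ar21 against i4g1, 44 loci passed, against 2 with no filter, 0 without the trend, 2 in edgeR, 7 in DESeq2 and 2 to 158 with a library left out; the 7 genes stayed at 0 throughout. Deviations of same-numbered libraries correlated at 0.12 (ar21 and i4g1), -0.08 (ar21 and WT) and -0.03 (i4g1 and WT) over 15589 loci, not all over 0.1, so the numbers were not read as a pairing; with the replicate block 2457, 3672 and 82 loci and 2, 4 and 0 genes passed, the fourth being PTAC12 in i4g1 (0.0324), and rpoB, psbD, psaA, psaB and psbB also differed between the mutants (adjusted p as low as 0.0109). Where a group is left with 1 library, that library is assumed to vary like the others.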

Other observations

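Several genes of the lists were listed at 0 in all 6 libraries, among them LHCA3, PTAC18, SIB1 and the plastid gene ycf2. The seed storage genes CRC and SESA1 were near 0, and CRA1 lay between 10.4 and 47.6 normalised counts, in the same libraries in which OLEO1 reached 131118.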
